A study of Mus musculus with 8 samples.

Results

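The genes described here are 31 genes of the growth plate and of cartilage matrix, listed by name for what they encode, with no threshold on the values measured. Earlier results of these data were known when the list was made. All 31 were measured, by 61 probe sets annotated to a single one of these symbols, among 18193 genes in the whole table. Tibiae and femora from male mice, 12 days of age, were profiled on 3′ expression microarrays, 4 arrays from Hyp mice and 4 from wild-type (WT) mice. In Hyp mice the 3′ part of Phex is deleted, here on a C57BL/6 background. They are a model of X-linked hypophosphatemia, in which phosphate is lost through the kidney and bone and growth plate cartilage mineralize poorly. For WT mice the strain is given only as wild type. The diet stated for the Hyp mice held 0.6% calcium and 0.54% phosphate. RNA of 2 bone samples of the same genotype was combined for each array, and nothing states which animals these came from, so each p-value reflects the spread among RNA pools, part of which may be technical. Whole bone carries cartilage, bone, marrow and attached soft tissue, and fewer cells of a type cannot be told apart from less RNA per cell.

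Cartilage is built by chondrocytes, which in the growth plate pass from resting to proliferating to hypertrophic cells as the bone lengthens. SOX9, with its partners SOX5 and SOX6, switches on the matrix genes of the resting and proliferating cells. The matrix itself is a mesh of type II collagen fibrils carrying type IX collagen, filled with aggrecan held on hyaluronan by link protein and tied together by matrilins. Articular cartilage at the joint surface shares much of this matrix and adds lubricin and other surface proteins.

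Each value below is on a log2 scale and was deposited with the median over the 8 arrays set to 0 for every probe set, so that it compares arrays for 1 gene and says nothing of how strongly a gene is expressed. For the same reason detection of cartilage markers, and of any other cell type, cannot be read as a level. A gene's value is the mean of its probe sets. Phex lay between -3.65 and -2.99 in the Hyp arrays and between 2.95 and 3.48 in the WT arrays, so that every array matched its genotype label, and Fgf23 between 2.39 and 3.16 in Hyp and between -3.09 and -2.39 in WT. The first principal component of all probe sets held 39.2% of the variance and set Hyp apart from WT, and on the next (22.6%) WT replicate 3 stood apart at -38.4, the rest lying from -10.3 to 17.5.

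Type II collagen, aggrecan, link protein, Snorc and matrilin-3 transcripts were more abundant in Hyp bone, and no transcription factor of the list was on its gene mean. Of the 31 genes these 5 rose (Col2a1, Acan, Hapln1, Snorc and Matn3), by 0.41 to 0.78 on the log2 scale. They make up 16.1% of the list, where 6.54% of all 18193 genes were higher (limma, Benjamini-Hochberg adjusted p under 0.05). Only Trps1 was lower, or 3.23% of the list against 6.32% of all genes. The other 25 genes did not pass, with differences from -0.94 to 0.57. The list's median difference was 0.052, against 0.025 over all genes, and 20 of the 31 differences were above 0. Without WT replicate 4 the list's median was 0.098, and without any other single array it was 0.036 to 0.072. It was 0.024 after quantile normalization and 0.028 with array weights, beside 0.025 over all genes without these changes. No member changed by more than 2-fold past the threshold.

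**Figure D1:**
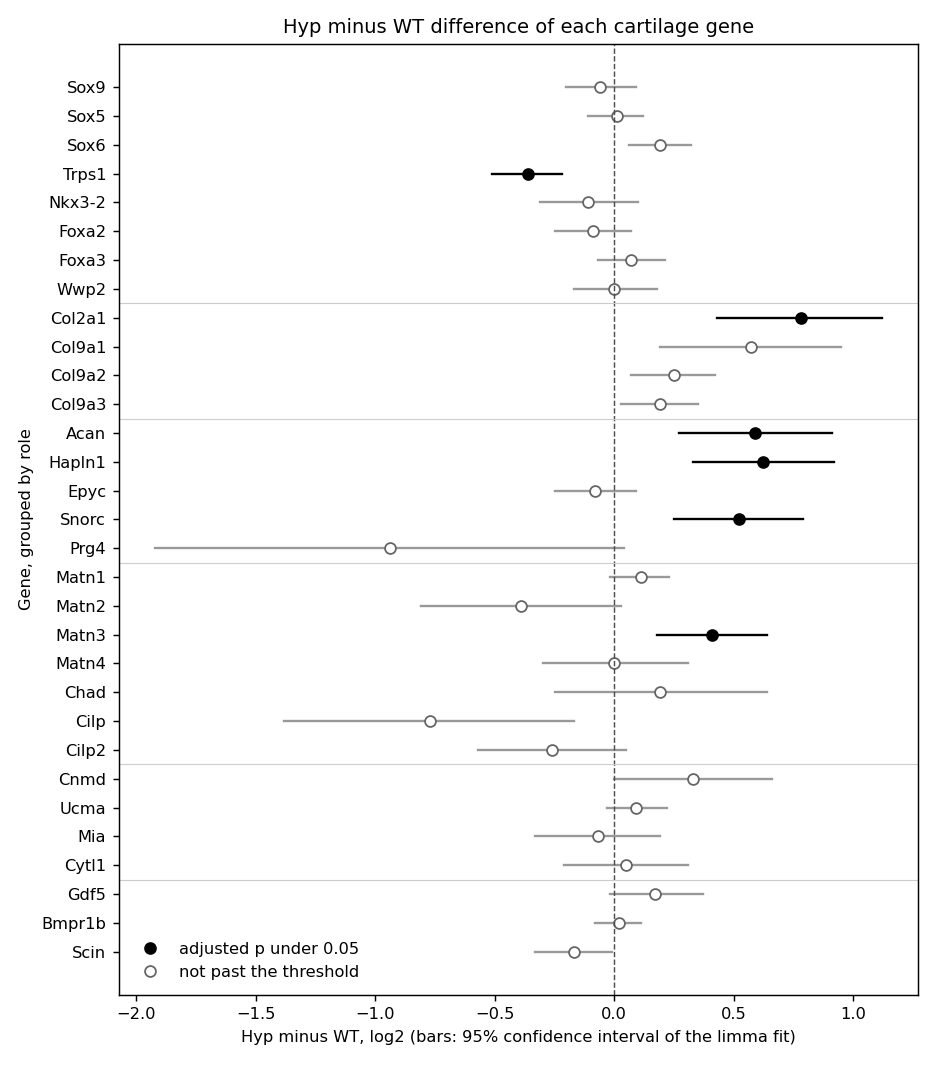
Difference between Hyp and WT arrays for each of the 31 genes on the log2 scale (horizontal axis), with points at the fitted difference and bars for its 95% confidence interval, genes grouped by role from transcription factors at the top to joint signalling and scinderin at the bottom. Filled points mark the 6 genes past the threshold; Col2a1 lies furthest to the right at 0.78 and Prg4 furthest to the left at -0.94 with an interval that reaches 0.04.

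The collagens of the cartilage fibril were led by Col2a1, which encodes the single chain of type II collagen. Its values were 0.64, 0.74, 0.67 and 0.05 in Hyp arrays, against -0.06, -0.05, -0.46 and -0.45 in WT arrays. Every Hyp array was above every WT array, although Hyp replicate 4 lay much nearer to the WT arrays than to the other Hyp arrays. The rise of Col2a1 was 0.78 ± 0.16 (SE; 4 arrays in each genotype; limma adjusted p = 0.00888), or 1.71-fold, and stayed past the threshold under every alternative in which it was tested (adjusted p from 0.00101 to 0.0292).

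The 3 chains of type IX collagen, which coats the type II fibril, all had positive differences and none passed on its gene mean. Col9a1 had 0.37, 0.62, 0.38 and -0.07 in Hyp arrays, against -0.56, 0.04, -0.48 and 0.04 in WT arrays. Here Hyp replicate 4 lay below WT replicates 2 and 4, so the groups overlapped. The difference of Col9a1 was 0.57 ± 0.17 (SE; limma adjusted p = 0.0539; 95% interval 0.19 to 0.95), and it passed when Hyp replicate 4 was left out (adjusted p = 0.0238), or else WT replicate 2 (0.0411) or WT replicate 4 (0.0469), and in 6 of 17 alternatives in all. Its 2 probe sets disagreed: 1 rose by 1.02 ± 0.25 (limma adjusted p = 0.0353) and the other lay at 0.12 ± 0.13 (adjusted p = 0.627). Col9a2 had 0.03, 0.14, 0.26 and 0.07 in Hyp arrays, against -0.09, -0.04, -0.34 and -0.03 in WT arrays. These groups did not overlap, yet the difference of 0.25 ± 0.08 missed the threshold (adjusted p = 0.0648). Col9a3 differed by 0.19 ± 0.07 (adjusted p = 0.119), with its 3 probe sets between 0.10 and 0.28.

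Among proteoglycans and the link protein, 3 of 5 genes rose. Acan encodes aggrecan, the large chondroitin sulfate proteoglycan that holds water in cartilage. It had 0.34, 0.42, 0.61 and -0.03 in Hyp arrays, against -0.24, -0.25, -0.57 and 0.03 in WT arrays. The first 3 Hyp replicates were above all WT arrays, and replicate 4 of each genotype lay near 0 with WT slightly above Hyp. Acan rose by 0.59 ± 0.14 (SE; limma adjusted p = 0.0225), or 1.51-fold. Acan missed the threshold without Hyp replicate 1, 2 or 3 (adjusted p = 0.054, 0.0601 and 0.0611) or without WT replicate 1 (0.0577), and with the muscle gene mean as a covariate (0.0534), with differences of 0.50 to 0.60 in the first 4 of these and 0.52 in the last.

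Hapln1, the link protein that locks aggrecan onto hyaluronan, had 0.39, 0.64, 0.37 and -0.02 in Hyp arrays, against -0.37, -0.26, -0.47 and -0.01 in WT arrays. The pattern is that of Acan, with replicate 4 of each genotype side by side between the groups. Hapln1 rose by 0.62 ± 0.13 (SE; limma adjusted p = 0.0129), or 1.54-fold, and passed under each of its 17 alternatives (adjusted p from 0.00336 to 0.0439). Of its 4 probe sets, 2 passed at 0.80 ± 0.15 and 0.82 ± 0.20 (adjusted p = 0.00895 and 0.0331) and the other 2 lay at 0.45 and 0.42 (0.0921 and 0.0643). Snorc, a small transmembrane proteoglycan of chondrocytes, had 0.27, 0.17, 0.44 and -0.01 in Hyp arrays, against -0.41, -0.29, -0.53 and 0.01 in WT arrays. Once more only replicate 4 of each genotype met. Snorc rose by 0.52 ± 0.12 (adjusted p = 0.0178), or 1.43-fold. Of the fits with 1 array left out, it missed the threshold in that without WT replicate 1 (difference 0.49, adjusted p = 0.0586).

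Epyc and Prg4 did not pass. Epyc (epiphycan), a small leucine-rich proteoglycan of the growth plate, differed by -0.08 ± 0.08 (SE; limma adjusted p = 0.531; 95% interval -0.25 to 0.09). Prg4 encodes lubricin, which is secreted at the joint surface and by synovium. It had -0.38, -0.43, 0.01 and -0.01 in Hyp arrays, against 0.05, 0.53, -0.02 and 2.40 in WT arrays. A single array, WT replicate 4, sets the size of its difference of -0.94 ± 0.44 (adjusted p = 0.198); without that array the difference was -0.39 (adjusted p = 0.155).

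**Figure D2:**
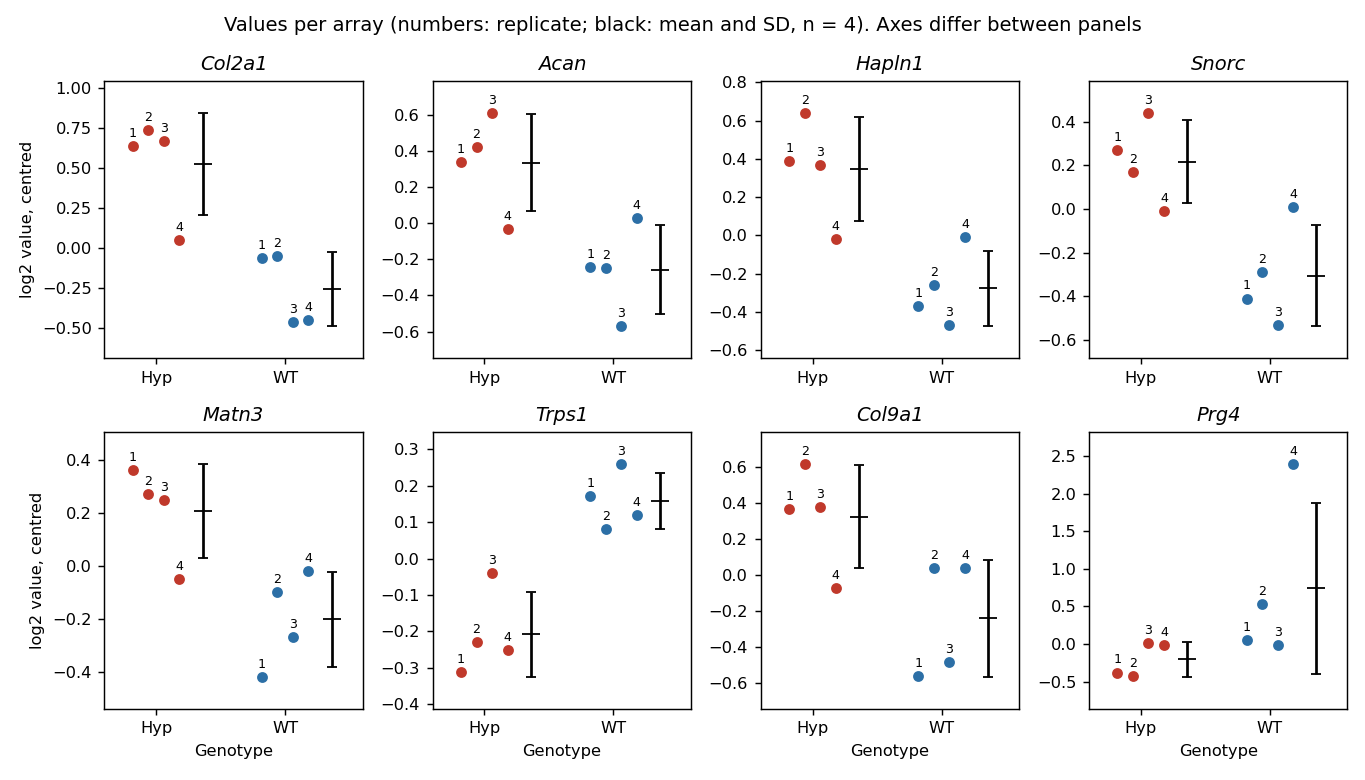
Values of 8 cartilage genes in each array (vertical axes, centred log2 value, scaled separately in each panel), Hyp arrays in red on the left and WT arrays in blue on the right, numbered by replicate, with the mean and SD of 4 arrays in black. In Col2a1, Acan, Hapln1, Snorc, Matn3 and Col9a1 Hyp replicate 4 is the lowest Hyp array, and in Prg4 WT replicate 4 stands alone at 2.40.

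Matrilins and related glycoproteins link collagen fibrils to each other and to proteoglycans, and 1 of 7 rose. Matn3, the matrilin of the growth plate, had 0.36, 0.27, 0.25 and -0.05 in Hyp arrays, against -0.42, -0.10, -0.27 and -0.02 in WT arrays. Hyp replicate 4 was below WT replicate 4, and all other Hyp arrays were above all WT arrays. Matn3 rose by 0.41 ± 0.10 (SE; limma adjusted p = 0.0259), or 1.33-fold. It missed the threshold without Hyp replicate 1, 2 or 3 (adjusted p = 0.0727, 0.0675 and 0.0668) or WT replicate 1 (0.0753), where its difference was 0.34 to 0.40. It also missed when each gene was read by its probe set of largest SD (0.0559). In the fit of all probe sets neither of its 2 passed (0.49 and 0.34, adjusted p = 0.0697 and 0.0857). Matn3 passed when probe sets with a shared-probe suffix were dropped. That left 1 of these 2, the same probe set of largest SD, fitted among a different set of features.

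The other matrilins did not pass. Matn1, the classical cartilage matrilin, differed by 0.11 ± 0.06 (SE; limma adjusted p = 0.261; 95% interval -0.02 to 0.23) and Matn4 by 0.00 ± 0.14 (interval -0.30 to 0.31). Matn2, a matrilin of many connective tissues, had -0.26, -0.24, -0.10 and 0.13 in Hyp arrays, against -0.07, 0.12, 0.10 and 0.94 in WT arrays. Its difference was -0.39 ± 0.19 (adjusted p = 0.213), and without WT replicate 4, its highest array, it was -0.17 (adjusted p = 0.331). Chad (chondroadherin), which binds collagen and integrins, ranged from -0.16 to 0.64 in Hyp and from -0.39 to 0.57 in WT, with a difference of 0.19 ± 0.20. Leaving out replicate 3 gave 0.05 (that of Hyp) or 0.07 (that of WT), and leaving out replicate 4 gave 0.31 (Hyp) or 0.39 (WT).

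Cilp encodes cartilage intermediate layer protein, found in articular cartilage, meniscus and tendon. Its values were 0.31, -0.82, -0.35 and -0.42 in Hyp arrays, against -0.11, 0.11, 0.80 and 1.01 in WT arrays. Hyp replicates 2, 3 and 4 lay below all WT arrays and Hyp replicate 1 lay above 2 of them. The difference of -0.77 ± 0.27 (SE; limma adjusted p = 0.0931; 95% interval -1.38 to -0.17) passed without Hyp replicate 1 (-0.98, adjusted p = 0.0399). Its relative Cilp2 differed by -0.26 ± 0.14 (adjusted p = 0.27), where WT replicate 4 had 0.58 and no remaining array was above 0.15. It was -0.12 without that array and -0.16 without Hyp replicate 2.

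The promoters of the genes that rose are shown to set their sequence beside their values across arrays. RefSeq windows on GRCm38.p6 were at hand for 23 of the 31 genes, and 3 of these, Acan, Hapln1 and Matn3, were among those that rose. Each run below is the 250 bases before the annotated start, 5′ to 3′ on the gene's own strand. Capitals mark GGGCGG, the GC box, on either strand, and its copies overlap in Acan and in Matn3.

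Acan (chr7:79052976-79053225, plus strand): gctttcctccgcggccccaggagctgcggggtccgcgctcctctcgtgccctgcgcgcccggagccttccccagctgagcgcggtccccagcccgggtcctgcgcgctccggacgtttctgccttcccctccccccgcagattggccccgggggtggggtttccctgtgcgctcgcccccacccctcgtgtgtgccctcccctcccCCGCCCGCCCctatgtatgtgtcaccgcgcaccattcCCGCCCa

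Hapln1 (chr13:89540386-89540635, plus strand): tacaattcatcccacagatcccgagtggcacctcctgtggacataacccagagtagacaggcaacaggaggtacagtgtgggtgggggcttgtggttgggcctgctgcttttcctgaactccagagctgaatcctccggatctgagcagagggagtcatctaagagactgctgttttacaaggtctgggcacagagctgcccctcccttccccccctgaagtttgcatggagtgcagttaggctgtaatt

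Matn3 (chr12:8947679-8947928, plus strand): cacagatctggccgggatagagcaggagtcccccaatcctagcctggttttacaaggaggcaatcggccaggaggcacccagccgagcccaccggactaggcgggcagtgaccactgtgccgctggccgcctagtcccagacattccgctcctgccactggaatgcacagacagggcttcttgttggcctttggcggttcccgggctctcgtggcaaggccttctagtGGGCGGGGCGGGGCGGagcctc

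The windows of Acan and Matn3 held 3 copies of GGGCGG each and that of Hapln1 none. This motif stood in 11 of the 23 genes' windows, counting the first listed start of each gene, and in 32.7% of all 32851 windows of the same length. GC content was 74.4% in Acan, 65.2% in Matn3 and 54.4% in Hapln1, where the median over all windows was 52.4%. None of the 3 windows held ACAATG or ACAAAG, letters of the SOX binding core searched on both strands, or the TATA box TATAAA. Among the 23 genes, 4 windows (Sox5, Sox6, Epyc and Bmpr1b) held ACAATG or ACAAAG, against 25.2% of all windows, and 4 held TATAAA (Foxa3, Wwp2, Chad and Bmpr1b), against 12.4%. No match says only that these letters are absent from this window.

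Transcription factors of chondrocytes and their partners did not rise on the gene mean, and 1 of 8 fell. Sox9, the master factor of the chondrocyte, had -0.23, 0.07, -0.03 and 0.02 in Hyp arrays, against -0.03, 0.00, 0.04 and 0.03 in WT arrays. The groups overlapped, the difference was -0.06 ± 0.07 (SE; limma adjusted p = 0.633), and its 95% interval of -0.20 to 0.09 ends below the rise of any of the 5 genes above. All 3 probe sets of Sox9 lay between -0.09 and -0.03. Sox5 differed by 0.01 ± 0.05 (interval -0.11 to 0.12), with 7 probe sets from -0.17 to 0.14.

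Sox6 had 0.04, -0.05, 0.10 and 0.08 in Hyp arrays, against -0.22, -0.20, -0.03 and -0.13 in WT arrays. Only Hyp replicate 2 and WT replicate 3 crossed. The difference of 0.19 ± 0.06 (SE; limma adjusted p = 0.0633; 95% interval 0.06 to 0.32) missed the threshold, and Sox6 passed in 5 of 17 alternatives: without WT replicate 3 (0.23, adjusted p = 0.0253), with array weights (0.0261), with the muscle gene mean as a covariate (0.0145), and by its probe set of largest SD (0.0386) or those without a shared-probe suffix (0.0267). Of its 4 probe sets 1 rose, by 0.36 ± 0.09 (adjusted p = 0.0448), and the others lay at 0.03, 0.18 and 0.18. Sox6 is also expressed by red cell precursors, and 5 of 8 measured erythroid markers rose, with list means between 0.05 and 0.16 in Hyp arrays and between -0.33 and -0.13 in WT arrays. Their part in the Sox6 difference was not tested.

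Trps1 encodes a GATA-type repressor that is needed for normal chondrocyte maturation and is also expressed by other skeletal cells. Its values were -0.31, -0.23, -0.04 and -0.25 in Hyp arrays, against 0.17, 0.08, 0.26 and 0.12 in WT arrays. The groups did not overlap. Trps1 fell by 0.36 ± 0.07 (SE; limma adjusted p = 0.00553) and passed under each of its 17 alternatives (adjusted p from 0.00228 to 0.0204). Of its 4 probe sets 2 fell, by 0.51 ± 0.08 and 0.36 ± 0.08 (adjusted p = 0.00424 and 0.0182), and the others lay at -0.30 and -0.28 (0.175 and 0.121). Osteoblast markers fell in the same arrays, 10 of 12 measured with 1 higher, with list means from -0.45 to -0.18 in Hyp and from 0.22 to 0.38 in WT. Their part in the fall of Trps1 was not tested.

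The remaining factors did not pass. Nkx3-2, a repressor that keeps chondrocytes from maturing, differed by -0.11 ± 0.09 (SE). The forkhead factors Foxa2 and Foxa3, which act in hypertrophic chondrocytes, differed by -0.09 ± 0.07 and 0.07 ± 0.06. Wwp2, a ubiquitin ligase made under SOX9 control in cartilage, differed by 0.00 ± 0.08, and its 6 probe sets lay between -0.11 and 0.07. Adjusted p for these 4 ranged from 0.451 to 0.981 (limma), and their widest 95% interval, that of Nkx3-2, ran from -0.31 to 0.10.

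**Figure D3:**
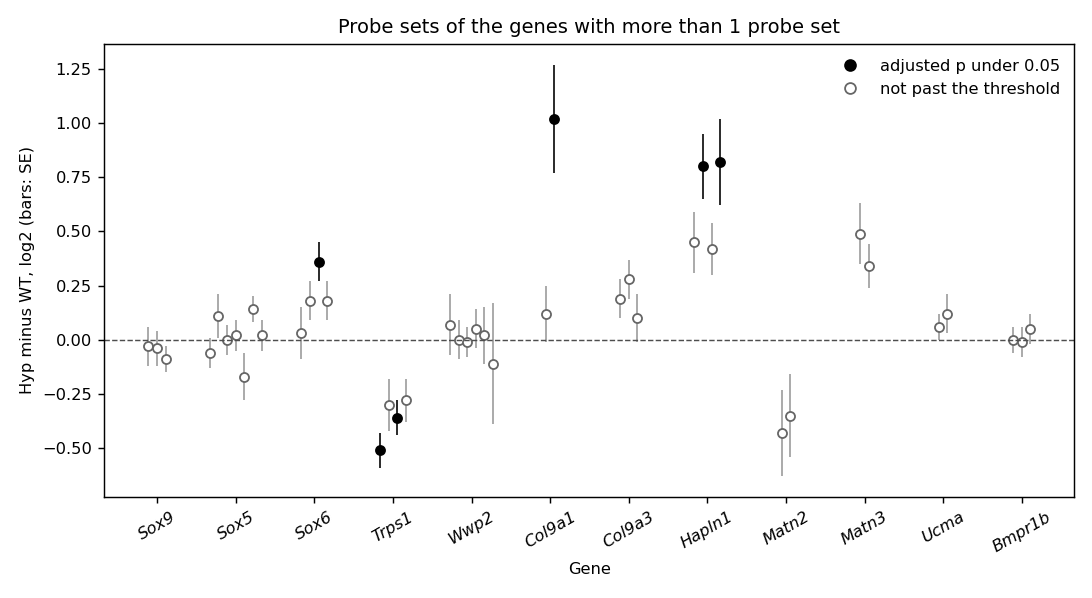
Difference between Hyp and WT arrays (vertical axis, log2, bars for the SE) of every probe set of the 12 genes that have more than 1, with filled points past the adjusted p threshold over all probe sets. Both called Hapln1 probe sets lie near 0.8, the Trps1 probe sets all lie below 0, and the Col9a1 probe sets are far apart at 1.02 and 0.12.

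By probe set, 7 of the 61 were higher and 2 lower in Hyp bone, where 3.22% of all 45037 probe sets were higher and 3.91% lower. The 7 belong to Col2a1, Col9a1, Acan, Snorc and Sox6, with 1 each, and to Hapln1 with 2. The 2 lower ones are both of Trps1. Matn3 passed on the mean of its probe sets and with neither of them in this fit of all probe sets. The higher count was 1 without Hyp replicate 2 or without Hyp replicate 3, 2 without Hyp replicate 1 or WT replicate 1, and 4 without WT replicate 2. The lower count was 1 without Hyp replicate 1, Hyp replicate 2 or WT replicate 1.

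None of 4 small secreted proteins of chondrocytes passed, with 1 (Cnmd) at an unadjusted p under 0.05. Cnmd (chondromodulin), an inhibitor of vessel growth in cartilage, had -0.16, 0.72, 0.23 and 0.20 in Hyp arrays, against -0.22, 0.01, -0.01 and -0.12 in WT arrays. Hyp replicate 2 was its highest array and Hyp replicate 1 lay among the WT arrays. The difference was 0.33 ± 0.15 (SE; limma adjusted p = 0.181), and it depended on single arrays: without Hyp replicate 1 it was 0.47 and passed (adjusted p = 0.0434), and without Hyp replicate 2 it was 0.17 (adjusted p = 0.333). Ucma, a Gla-rich protein of the resting zone, differed by 0.09 ± 0.06 (95% interval -0.03 to 0.22), Mia, a small secreted protein of cartilage, by -0.07 ± 0.12 (-0.33 to 0.19) and Cytl1, a cytokine-like protein of chondrocytes, by 0.05 ± 0.12 (-0.21 to 0.31). Adjusted p for these 3 ranged from 0.32 to 0.82.

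Joint signals and scinderin gave 0 calls of 3, with 1 (Scin) at an unadjusted p under 0.05. Gdf5, the growth factor of the forming joint, differed by 0.17 ± 0.09 (SE; limma adjusted p = 0.227), with Hyp arrays between -0.03 and 0.13 and WT arrays between -0.35 and 0.09. Its receptor Bmpr1b differed by 0.02 ± 0.04, the narrowest interval of the list (95%, -0.08 to 0.11). Scin, an actin-severing protein of hypertrophic chondrocytes, differed by -0.17 ± 0.07 (adjusted p = 0.148), with Hyp arrays between -0.19 and 0.03 and WT arrays between -0.03 and 0.23.

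**Figure D4:**
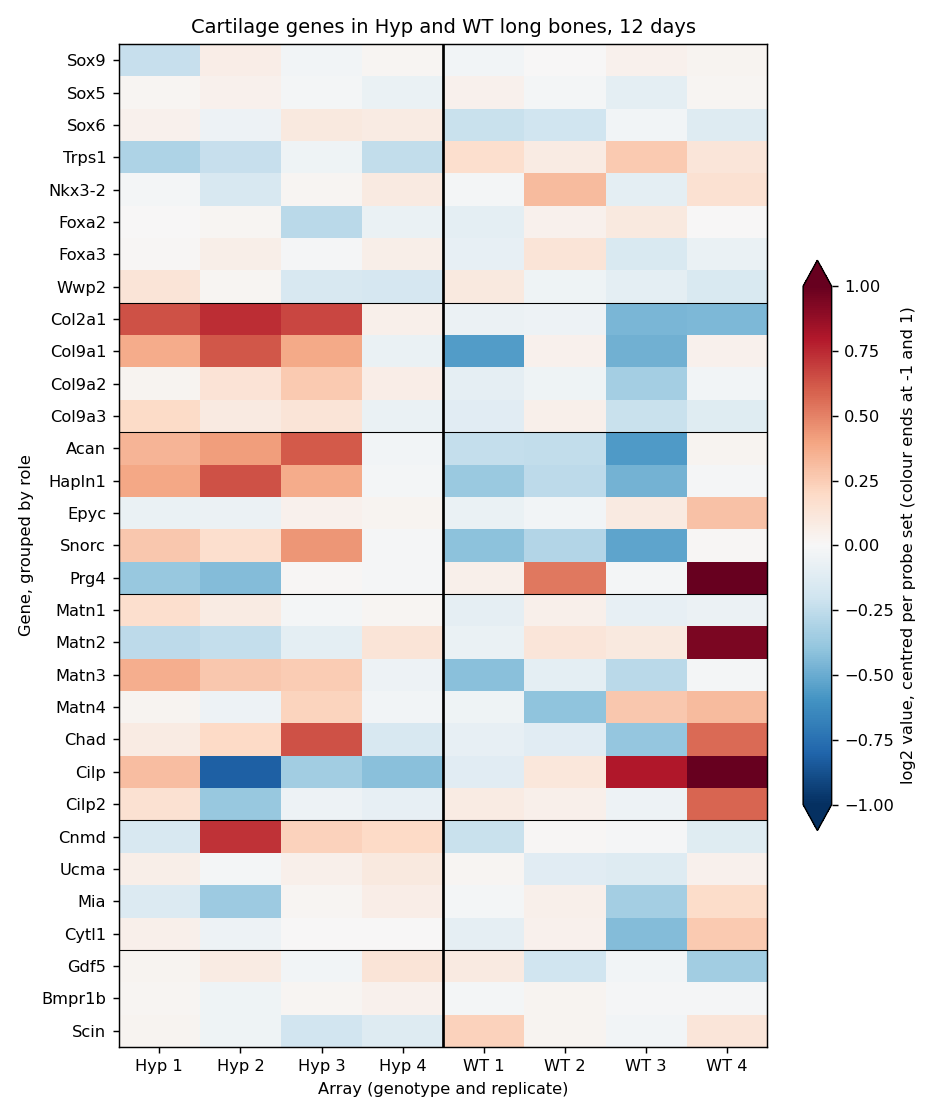
Values of the 31 genes (rows, grouped by role) in the 4 Hyp arrays on the left and the 4 WT arrays on the right, as centred log2 values on a colour scale that ends at -1 and 1. Red marks values above the gene's median and blue below; Hyp replicates 1 to 3 are red across Col2a1, Col9a1, Acan, Hapln1, Snorc and Matn3, and Hyp replicate 4 is pale there.

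The matrix genes that rose shared their lowest Hyp array, while their highest Hyp array differed between genes. Hyp replicate 4 was the lowest Hyp array in 5 of these 5 genes and in 10 of all 31, where it was the lowest for 23.3% of all genes measured. WT replicate 4 was the highest WT array in 4 of the 5 and in 15 of 31, against 23.8% of all genes, and WT replicate 3 was the lowest in 4 of the 5 and in 16 of 31, against 31.8%. Since the 5 genes come from the same 8 RNA pools, they are not independent of each other. All Hyp arrays were above all WT arrays for 2 of the 31 genes (Col2a1 and Col9a2), or 6.45%, and below them for 1 (Trps1), or 3.23%. Over all genes these shares were 10.3% and 8.89%. With counts of 2 and 1, the shares in the list are not read as different from those of the whole table.

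With single arrays left out, the number of the 31 genes that were higher was 2 without WT replicate 1, 3 without Hyp replicate 2 or Hyp replicate 3, 4 without Hyp replicate 1 (Cnmd among them) and 6 without Hyp replicate 4, WT replicate 2, WT replicate 3 or WT replicate 4. The 6th was Sox6 without WT replicate 3 and Col9a1 in the other 3 cases. Without WT replicate 1 the count over all genes was 605, against 1190 with all arrays. Without WT replicate 4 it was 787, and without Hyp replicate 3 it was 795. Col2a1 and Hapln1 passed each time. Trps1 was the only lower gene in each case but 1: without Hyp replicate 1, Cilp passed as well. With all arrays and the replicate number as a block, 2 of the 31 genes were higher, and Acan, Snorc and Matn3 missed the threshold.

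Other tissues of the sampled bones varied between arrays, and their part in the cartilage differences was not tested. Skeletal muscle markers had list means of -1.26 to 0.17 in Hyp and -0.60 to 1.99 in WT, with 1.99 in WT replicate 3, and 0 of 18 passed in limma (1 at an unadjusted p under 0.05). With their mean as a covariate, 5 of the 31 genes were still higher, now with Sox6 and without Acan. Of 11 tendon and ligament markers 2 were higher and 2 lower, with a median difference of -0.181 and single genes from -0.89 to 2.95. Their list means were -0.17 to 0.23 in Hyp and -0.16 to 0.29 in WT. WT replicate 4, the array that was highest in Prg4, Matn2, Cilp and Cilp2, had 0.29. Of 13 markers of synovium and the articular surface, Prg4 among them, 2 were higher and none lower. List means were -0.07 to 0.07 in Hyp and -0.04 to 0.17 in WT, highest in WT replicate 4. Prg4 had 2.40 in that array, so this highest mean may only restate Prg4, and the list was not read without it. Macrophage and endothelial markers were higher in Hyp, 11 of 12 each, with list means of 0.18 to 0.38 and 0.11 to 0.26 in Hyp arrays, against -0.38 to -0.26 and -0.34 to -0.16 in WT arrays.

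Growth plate and cartilage genes outside the 31 were read from 5 further lists, and several fell where type II collagen and aggrecan rose. The counts of each list stand beside 6.54% of all genes higher and 6.32% lower, and no set test was run. In the list of hypertrophic cartilage and the Ihh-PTHrP loop, 2 of 21 measured genes rose and 9 fell, with a median of -0.170. Sp7, Alpl, Ibsp and Pth1r in this list also stand among the osteoblast markers, so the 2 lists are not separate. Col10a1, the collagen of hypertrophic cartilage, lay at 1.35, 1.85, 1.57 and 0.58 in Hyp arrays, against -1.13, -0.58, -1.58 and -1.62 in WT arrays, so that its lowest Hyp array was again replicate 4. It rose by 2.57 ± 0.28 (SE; limma adjusted p = 0.000227), several times the difference of Col2a1. Mmp13, the collagenase of hypertrophic cells and osteoblasts, rose by 0.52 ± 0.06, while Sp7 and Dlx5, transcription factors of osteoblasts and late chondrocytes, fell by 0.71 ± 0.08 and 0.42 ± 0.04 (adjusted p from 0.000182 to 0.000274). The part of the osteoblast markers, which fell in these arrays as given beside Trps1, in these and the following falls was not tested.

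Of 17 other cartilage matrix genes 2 rose and 7 fell, with a median of -0.294. The number that rose was 3 without WT replicate 4, 2 without Hyp replicate 4 and 1 without any other single array. Type XI collagen forms the core of the type II fibril in cartilage, and its chains are also made by bone cells. Col11a1 had -0.33, -0.47, -0.26 and -0.41 in Hyp arrays, against 0.51, 0.30, 0.46 and 0.37 in WT arrays, and fell by 0.78 ± 0.06 (SE; limma adjusted p = 5.78e-05). Col11a2 fell by 1.01 ± 0.10 (adjusted p = 0.000181), with no overlap between the genotypes. These falls stand beside a rise of 0.78 for Col2a1, and Hyp replicate 4 was not the Hyp array nearest to WT for either gene. Fmod and Lum, small leucine-rich proteoglycans of many connective tissues, fell by 0.86 ± 0.09 and 0.62 ± 0.06 (adjusted p = 0.000214 and 0.000104). Fmod also stands among the tendon markers above.

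Aggrecan carries sulfated sugar chains, and genes that build and sulfate such chains were among those that fell. The list of sulfation and glycosaminoglycan synthesis held 20 measured genes, with 6 lower, 1 higher and a median of -0.149. None was higher when any single array but WT replicate 3 was left out. Chst13, a chondroitin sulfotransferase, fell by 0.76 ± 0.06 (SE), Papss2, which makes the sulfate donor, by 0.41 ± 0.06, Chsy1, a chondroitin synthase, by 0.39 ± 0.06 and Ugdh, which makes the glucuronate donor, by 0.38 ± 0.05 (limma adjusted p from 5.42e-05 to 0.00157). In each of these 4 genes all Hyp arrays lay below all WT arrays. Of the 4 probe sets of Papss2, 3 fell and the other lay at 0.08.

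Regulators of the growth plate went both ways. Of 34 measured genes in the list of SOX9 regulators and growth plate signalling, 4 rose and 6 fell, with a median of -0.075. Over all genes 6.54% were higher and 6.32% lower. Prkg2, the kinase through which C-type natriuretic peptide acts on chondrocytes, had 0.34, 0.59, 0.67 and 0.38 in Hyp arrays, against -0.52, -0.33, -0.34 and -0.41 in WT arrays. It rose by 0.89 ± 0.08 (SE; limma adjusted p = 8.14e-05), with 2 of 3 probe sets past the threshold, and Bmp6 rose by 0.70 ± 0.10 (adjusted p = 0.00169). Bmp7, another bone morphogenetic protein, fell by 1.19 ± 0.10 and Stc2, a secreted stanniocalcin, by 0.61 ± 0.07 (adjusted p = 5.81e-05 and 0.000395). The number that fell was 3 without WT replicate 4 and 4 or 5 without any other single array. Among aggrecanases and cartilage proteases 5 of 15 measured genes rose and 1 fell, with a median of 0.062. The number that rose was 3 without WT replicate 1, and the number that fell was 2 without Hyp replicate 3 or WT replicate 4. Besides Mmp13, Htra1, a secreted serine protease, rose by 0.63 ± 0.10 and Mmp14, a membrane collagenase, by 0.28 ± 0.06, and Timp1, an inhibitor of metalloproteinases, fell by 0.61 ± 0.10 (adjusted p from 0.00261 to 0.0151).

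**Figure D5:**
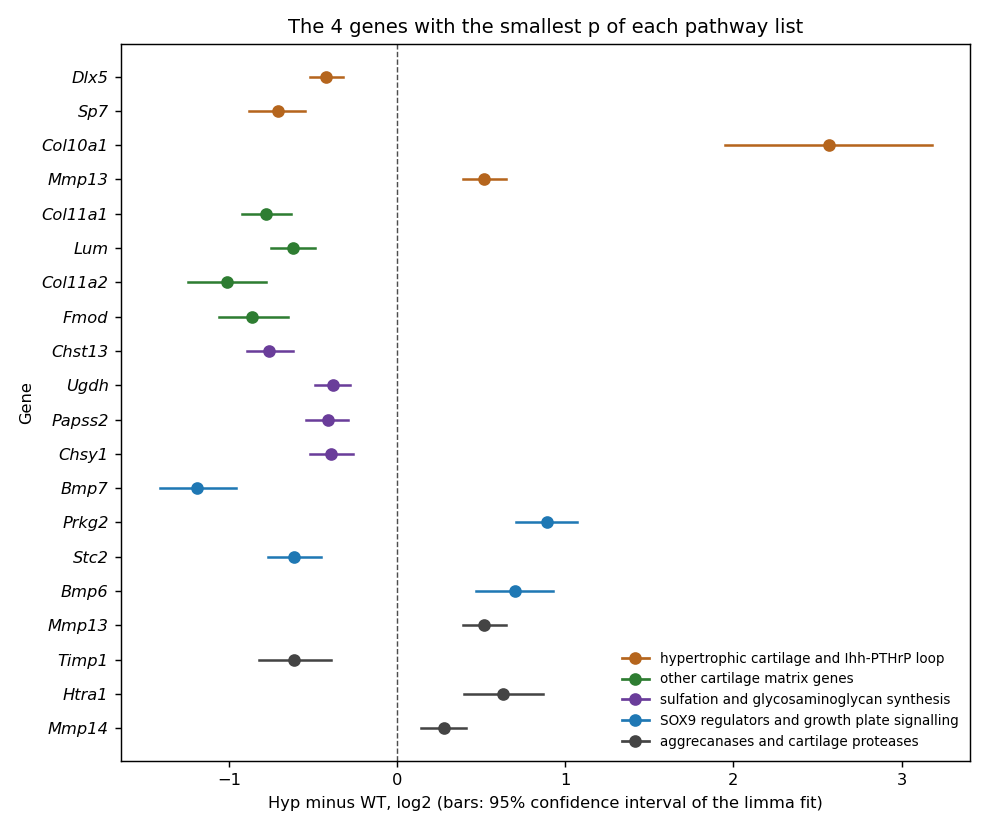
Difference between Hyp and WT arrays (horizontal axis, log2, bars for the 95% confidence interval) of the 4 genes with the smallest p in each of 5 lists of growth plate and cartilage genes, coloured by list, with Mmp13 shown in both lists that hold it. Col10a1 lies at 2.57, the type XI collagen chains at -0.78 and -1.01, and all 4 sulfation genes below 0.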

How the data were processed

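Biotin-labelled cRNA of 8 RNA pools, 4 Hyp and 4 WT, was hybridised to 3′ expression arrays. The authors deposited 1 table of log2 values, and RMA is named per the submitters' processing notes, its version not given in the sources used here. The median of every probe set over the 8 arrays was 0 (within 5.0e-07), a centring that no label records. The log base was taken as 2, as RMA gives. Neither level nor signal over background can be read, and the number of arrays limits the precision.

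Of 45101 probe sets 64 controls were left out. A single symbol was annotated to 34945, updated through RefSeq (GRCm38.p6) for 34741, and 18193 gene means and 45037 probe sets were each fitted across all features with limma 3.58.1 (R 4.3.3; lmFit and eBayes, Hyp minus WT, no covariate, two-sided) and Benjamini-Hochberg adjustment at 0.05. The fit was tested on simulated data. Members, lists and motifs were chosen with earlier results of these data known, and no set test was run. All members are named. From each further list the 4 genes with the smallest p are named, and any other gene there was chosen after its values were seen. Alternatives were a replicate block, leaving out each array, quantile normalization, median centring, array weights, a robust prior, an SD filter in place of one on dim probe sets, a muscle covariate and other ways to combine probe sets.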

Additional observations from a re-analysis of the deposited data

Results flagged for a closer look

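Among 104 groups of 4 arrays, those of the 31 genes and of the named genes of the other lists, 2 held an array that stood apart from the other 3 by more than Dixon's 95% critical value for the gap over the range, where chance alone marks about 1 in 20. Col2a1 was 0.05 in Hyp replicate 4 and between 0.64 and 0.74 in the other Hyp arrays. Bmpr1b was 0.03 in WT replicate 2 and between -0.02 and -0.01 in the other WT arrays.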

How the results depend on the processing

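Over 17 alternatives the 31 genes gave 516 values: 486 stayed on their side of the threshold in the same direction, or moved by less than the spread between arrays, 14 lost a call, 14 gained one and 2 moved more, and no called gene changed sign. Where a count changed by more than 1.5 times, the cause was not tested beyond what each alternative changes. Leaving out single arrays gave 2 to 6 of the 31 genes higher (5 with all arrays) and 1 to 2 lower (1), 605 to 1437 of all genes higher (1190), and 1 to 9 member probe sets higher (7) and 1 to 2 lower (2). Over the same fits the list's median ran from 0.036 to 0.098, and it was 0.024 after quantile normalization and 0.028 with array weights. In the other lists it gave 1 to 3 matrix genes higher (2), 0 to 1 sulfation genes higher (1), 3 to 5 SOX9 regulators lower (6), 3 to 5 proteases higher (5) and 1 to 2 lower (1).

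With the replicate number as a block, 2 of the 31 genes were higher (Acan, Snorc and Matn3 missed, adjusted p = 0.0627, 0.0538 and 0.0623), 4 member probe sets were higher and 2 proteases lower. Same-numbered Hyp and WT arrays had deviations correlated at 0.145, -0.0437, 0.262 and 0.179. Hyp replicates 3 and 4 correlated best with the WT array of their own number. Hyp replicate 1 correlated best with WT replicate 2 (0.199), and Hyp replicate 2 with WT replicate 1 (0.132). These correlations do not settle whether the numbers pair arrays. The labels do not say so, and the main fit therefore had no block. With the muscle covariate 3 member probe sets and 1 other matrix gene were higher, 0 sulfation genes were higher and 3 SOX9 regulators lower. Of the 31 genes 6 were higher with array weights (Sox6 added), in the features with larger SD (Col9a1 added), by the probe set of largest SD and by probe sets without a shared-probe suffix (both added in each, with Matn3 missed in the first and Col2a1 without such a probe set in the second). Array weights and a robust prior each gave 1 other matrix gene higher. Keeping only the 50% of features with the larger SD gave 2 members lower (Cilp added), and this setting, median centring, the probe set with the largest SD and probe sets without a shared-probe suffix each gave 0 sulfation genes higher. Quantile normalization and median centring each gave 2 proteases lower. A background correction and a filter on dim probe sets were not run, since centred values hold no level, and which values signal over background limits cannot be read.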

Other observations

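Some cartilage genes outside the 31 and outside the naming rule were chosen after their values were seen. Comp, the cartilage oligomeric matrix protein, had 0.48, 0.58, 0.61 and -0.13 in Hyp arrays, against -0.95, -0.36, -1.43 and 0.13 in WT arrays. Replicate 4 of each genotype crossed, as in Acan. Comp rose by 1.04 ± 0.29 (SE; limma adjusted p = 0.042) and passed in 7 of 17 alternatives, with adjusted p from 0.0102 to 0.119. Among the arrays, its call was lost without Hyp replicate 1, 2 or 3 (adjusted p = 0.0933, 0.1 and 0.105) or WT replicate 1, 2 or 3 (0.119, 0.0522 and 0.0617). Col27a1, a fibrillar collagen of cartilage, had 0.22, 0.32, 0.15 and 0.14 in Hyp arrays, against -0.15, -0.33, -0.13 and -0.26 in WT arrays. Its gene mean rose by 0.43 ± 0.06 (limma adjusted p = 0.0015) and passed in all 17 alternatives. Its 2 probe sets, at 0.39 and 0.47, both passed in the fit of all probe sets.

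The next 4 genes were likewise chosen after their values were seen. Ihh, a hedgehog ligand made by prehypertrophic chondrocytes, had 0.01, 0.50, 0.49 and 0.08 in Hyp arrays, against -0.01, -0.04, -0.03 and -0.06 in WT arrays. The genotypes did not overlap, and the difference of 0.31 ± 0.11 (SE) missed the threshold (limma adjusted p = 0.0895), passing only without Hyp replicate 1 (adjusted p = 0.0355). Gli1 and Gli2, transcription factors that act in hedgehog signalling, fell by 0.46 ± 0.10 and 0.31 ± 0.06 (adjusted p = 0.0139 and 0.00485), and 1 of the 2 probe sets of Gli2 passed alone. Fgfr3, the receptor that restrains chondrocyte growth, differed by 0.17 ± 0.06 (adjusted p = 0.0787) and passed in none of 17 alternatives (adjusted p from 0.0734 to 0.403).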
